A study of Arabidopsis thaliana with 9 samples.

Results

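COR15A, COR47 and LTI30 are Arabidopsis thaliana genes known for their induction by cold and drought. They were chosen by name, and each was read from a probe set of its own among the 22746 probe sets tested (loci AT2G42540 for COR15A, AT1G20440 for COR47 and AT3G50970 for LTI30). All 3 were present in the table, and none was lost to a filter. RNA of whole plants of the Col-0 strain, grown for 35 days on plates at 21 ºC in constant light, was hybridised to 9 ATH1 arrays, which carry short probes for most Arabidopsis genes. The reference group was a double transformant with the source name Columbia (n = 3), whose labels name no mutation and do not say what it carries. The null mutant (n = 3) and the amino acid substitution mutant (n = 3) both carry an EMS-induced mutation in HDA6, a histone deacetylase that acts in gene silencing, and share the source name rts1-1, so the titles alone separate them and separate lines or alleles are not stated. The labels do not say whether the mutants also carry what the double transformant carries. The night humidity label reads 35% on double transformant 1 and 53% on the remaining 8 arrays. The day and average humidity labels read 53% on all 9, so whether the 35% was a true setting cannot be told. The titles of double transformant 1, null mutant 1 and substitution 3 end in rpt, without further explanation.

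In cold, CBF transcription factors bind a short element in the promoters of the COR genes and switch them on, while drought acts on many of the same genes through abscisic acid. COR15A encodes a small protein that is imported into the chloroplast stroma and protects membranes when cells freeze or dry out. COR47 and LTI30 encode dehydrins, water-loving proteins that are thought to shield membranes and enzymes in drying cells. All 3 belong to the wider family of late embryogenesis abundant (LEA) proteins, which also accumulate in maturing seeds.

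Values below are MAS5 signals, a linear measure of probe set brightness scaled to a common level per array, and levels of different probe sets are not comparable. Arrays had median signals of 31.8 to 36.8 and 99th percentiles of 1958 to 2309. Within groups the arrays correlated at 0.945 to 0.977, with the lowest value in the null mutant. Whether replicates were independently grown is not stated, so p-values reflect array-to-array spread alone, and that spread may be technical. Of the tissue markers listed, the leaf genes LHCB4.1 and RCA (2 of 20 measured) had signals between 4120 and 9008, whereas the root genes EXPA7 and EXPA18 (2 of 16 measured) stayed at or below 8.99 and the flower and pollen genes SHT, ANX1, ANX2 and A9 (4 of 16 measured) at or below 24.1, near background. Here a gene counts as measured where the annotation used names it alone on a probe set. Other listed genes may still be on the array, on probe sets that could not be assigned to them here. In whole plants, more cells of a type and more RNA per cell cannot be told apart.

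COR15A had a signal of 107.7, 262 and 161 on double transformant arrays 1, 2 and 3, of 2606, 505 and 1195 on null mutant arrays 1, 2 and 3, and of 382, 446 and 458 on substitution arrays 1, 2 and 3. All 6 mutant arrays lay above all 3 double transformant arrays, a pattern held by 4.13% of all probe sets. Taken singly, the null mutant arrays lay above those of the double transformant for 8.19% of probe sets and below for 5.49%, and the substitution arrays above for 10.6%. The group means were 177 ± 78.5 in the double transformant, 428 ± 40.9 in the substitution group and 1435 ± 1071 in the null mutant (SD, n = 3). COR15A rose in the null mutant, with a mean signal 8.10 times that of the double transformant and a log2 difference of 2.78 ± 0.47 (SE; 95% interval 1.76 to 3.80; limma adjusted p = 0.0187). Calls at an adjusted p under 0.05 were made for 0.761% of all probe sets in this comparison, and calls for a rise for 0.659%. The call was lost without double transformant 1 (2.48, adjusted p = 0.0625), without double transformant 3 (2.76, adjusted p = 0.0967) and without null mutant 3 (2.76, adjusted p = 0.0764), and held in the other 6 fits that left out a single array. The SE of this comparison rests on a spread shared with the substitution arrays. The log2 SD of COR15A was 0.63 (double transformant), 1.18 (null mutant) and 0.14 (substitution). With only the double transformant and null mutant arrays in the fit, the call was also lost.

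In the substitution group the COR15A mean was 2.42 times that of the double transformant, a log2 difference of 1.34 ± 0.47 (95% interval 0.32 to 2.36; limma adjusted p = 0.270), which did not pass, in a comparison where 0.62% of all probe sets were called higher. Its 3 arrays nevertheless agreed closely with each other, the highest being 1.20 times the lowest, against 5.16 times in the null mutant. The lowest substitution array was 1.45 times the highest double transformant array. The null mutant exceeded the substitution group by 1.44 ± 0.47 (95% interval 0.42 to 2.46; limma adjusted p = 0.667), and the arrays of these groups did not overlap, as for 6.06% of all probe sets in that direction and 5.6% in the other. Null mutant 2 was only 1.104 times the highest substitution array. Without null mutant 1 the difference between the mutants was 0.86, and without null mutant 2 it was 2.04 (adjusted p = 0.0660). In the order of group levels, double transformant, substitution and null mutant, neither pair of neighbours passed the test, and the outer pair did.

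LTI30 had a signal of 97.0, 61.9 and 49.2 on double transformant arrays 1, 2 and 3. It reached 1010, 173 and 269.9 on null mutant arrays 1, 2 and 3. Substitution arrays 1, 2 and 3 gave 158, 191 and 163. Again every mutant array lay above every double transformant array, but the null mutant and substitution arrays overlapped. Null mutant 1 stood 3.74 times above the next array of its group. The null mutant mean of 484 ± 458 was 6.98 times the double transformant mean of 69.3 ± 24.8 (SD, n = 3), a log2 difference of 2.37 ± 0.49 (95% interval 1.31 to 3.44), and its limma adjusted p of 0.0535 missed the threshold. Without null mutant 1 the difference was smaller, 1.64, and passed (adjusted p = 0.0314), and without null mutant 2 it was 2.90 (adjusted p = 0.0128). In the other 7 fits without a single array it did not pass.

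For LTI30 in the substitution group, the mean of 171 ± 17.9 was 2.46 times that of the double transformant, a log2 difference of 1.299 ± 0.49 (95% interval 0.23 to 2.37; limma adjusted p = 0.309). This comparison shares its estimate of spread with the null mutant arrays. With only the 6 double transformant and substitution arrays in the fit the same difference passed (adjusted p = 0.0374), as it did without null mutant 1 (adjusted p = 0.0353). The null mutant exceeded the substitution group by 1.07 ± 0.49 (95% interval 0.01 to 2.14; limma adjusted p = 0.779), which was 0.34 without null mutant 1 and 1.60 without null mutant 2.

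COR47 behaved differently. Its signal was 1874, 1780 and 1628 on double transformant arrays 1, 2 and 3. On null mutant arrays 1, 2 and 3 it was 3231, 1303 and 2128, so that this group reached both above and below the double transformant. Substitution arrays 1, 2 and 3 gave 1168, 1161 and 1127, all below every double transformant array, which 8.6% of all probe sets also showed. The null mutant mean was 2221 ± 967 and that of the double transformant 1761 ± 124 (SD, n = 3), a log2 difference of 0.24 ± 0.25 (95% interval -0.31 to 0.80; limma adjusted p = 0.786). Without null mutant 1 the sign turned (-0.078, adjusted p = 0.95). The substitution mean of 1152 ± 21.6 gave a log2 difference of -0.61 ± 0.25 from the double transformant (95% interval -1.16 to -0.053; limma adjusted p = 0.368), where calls were made for 0.747% of all probe sets and calls for a fall for 0.127%.

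Between the mutants, COR47 was at 2221 in the null mutant against 1152 in the substitution group. The arrays did not overlap, as for 6.06% of all probe sets in that direction and 5.6% in the other. The log2 difference was 0.85 ± 0.25 (95% interval 0.29 to 1.40; limma adjusted p = 0.624). In this comparison 0.0396% of all probe sets were called, 0.0352% as higher and 0.0044% as lower in the null mutant. Without null mutant 2 the difference was 1.18 and passed (adjusted p = 0.0343). The brightest probe sets varied between the arrays of every group. The 99th percentile was 2306, 1958 and 2271 on null mutant arrays 1, 2 and 3. It was 2013, 2145 and 2303 on double transformant arrays and 2309, 2032 and 2116 on substitution arrays, in replicate order. After quantile normalization, which gives all arrays the same distribution, COR47 was at 2811, 1338 and 2004 on null mutant arrays 1, 2 and 3. Its log2 difference from the double transformant was then 0.13 for the null mutant and -0.66 for the substitution arrays.

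**Figure D1:**
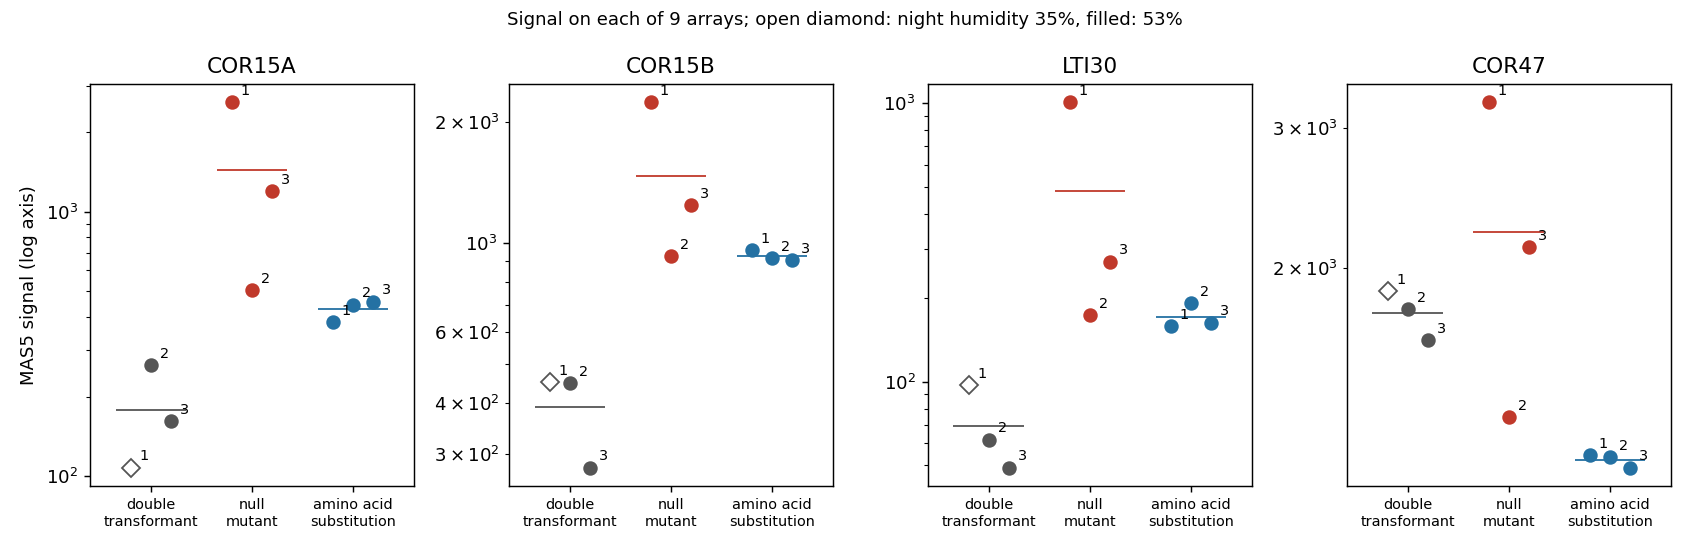
MAS5 signal (log axis) of COR15A, its neighbour COR15B, LTI30 and COR47 on each of the 9 arrays, with the replicate number beside each point, the group mean as a line and an open diamond for the array labelled with a night humidity of 35%. COR15A, COR15B and LTI30 are higher on all 6 mutant arrays than on any double transformant array, while COR47 is lowest on the 3 substitution arrays.

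The spread of the members inside the null mutant was among the widest on the arrays. On the log2 scale the SD over the 3 null mutant arrays was 1.18 for COR15A, 1.31 for LTI30 and 0.65 for COR47, against a median of 0.216 over the 11373 probe sets above the median level. Lower SDs than those of COR15A, LTI30 and COR47 were found for 99.4%, 99.6% and 96.2% of these probe sets. In the substitution group the SDs were 0.14 for COR15A, 0.145 for LTI30 and 0.027 for COR47, against a median of 0.153. In the double transformant they were 0.63 for COR15A, 0.47 for LTI30 and 0.10 for COR47, against a median of 0.192. There, 97.6%, 93.5% and 19.8% of the same probe sets had lower SDs than COR15A, LTI30 and COR47. A wide spread of COR15A and LTI30 was thus not particular to the null mutant.

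All 3 members were highest on null mutant 1, intermediate on null mutant 3 and lowest on null mutant 2. This order was shown by 17% of all probe sets, near an even share of the possible orders. Null mutant 1 is an array titled rpt. Without the arrays so titled, null mutant and double transformant differed by 1.90 for COR15A, 1.90 for LTI30 and -0.031 for COR47 (log2). COR15A lay 3.94, 1.58 and 2.82 above the double transformant mean on null mutant arrays 1, 2 and 3, on the log2 scale, and LTI30 3.84, 1.33 and 1.95. On null mutant 2 these distances were thus close to those of the substitution arrays, which ran from 1.18 to 1.44 for COR15A and from 1.19 to 1.46 for LTI30. The leaf markers were also low on null mutant 2: LHCB4.1, a light-harvesting protein, deviated from its group mean by 0.28 and 0.32 on null mutant 1 and 3 and by -0.60 on null mutant 2, and RCA, the activase of the carbon-fixing enzyme, gave 0.32, 0.20 and -0.53 on arrays 1, 3 and 2. The summed signal of these 2 leaf markers had a range of 8874 to 16182 over the null mutant arrays, 9675 to 14907 over the double transformant arrays and 10159 to 13178 over the substitution arrays. The ratio of 3' to 5' signal of the GAPDH control, a measure of RNA and labelling quality, was 1.71, 1.38 and 1.95 on null mutant arrays 1, 2 and 3. The same ratio was 12.4, 15.6 and 11.1 for actin and 3.20, 3.47 and 3.57 for ubiquitin, so these controls ranked the arrays differently. The part of these measures in the spread of the cold genes was not tested.

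**Figure D2:**
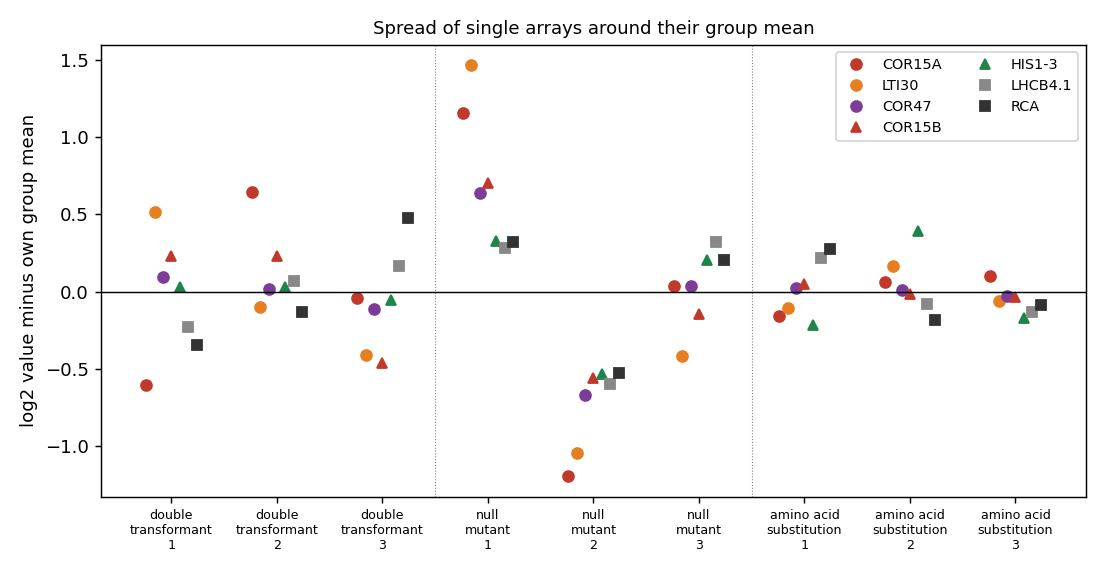
Deviation of each array from its own group mean, on the log2(signal + offset) scale, for COR15A, LTI30, COR47, COR15B and the linker histone gene HIS1-3, with the leaf markers LHCB4.1 and RCA as squares. All 7 genes are below their group mean on null mutant 2, with deviations from -1.20 to -0.53, and above it on null mutant 1. Among genes not shown, DI21 had the same signs (0.13 on null mutant 1, -0.19 on null mutant 2). M17 had the opposite signs (-0.45 and 0.14), and HVA22C and ALDH7B4 had their lowest null mutant signal on array 1.

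The array labelled with the lower night humidity did not set the members apart in a single direction. On double transformant 1, COR15A had the lowest signal of its group, 0.91 below the mean of the other double transformant arrays on the log2 scale, where those arrays lay 0.69 from each other. LTI30 had the highest signal of its group there, 0.77 above the others, which lay 0.31 apart. COR47 was also highest there, by 0.14, with the others 0.13 apart. With a single array so labelled, which is also titled rpt, humidity, title and array cannot be told apart, and no test was made. Leaving this array out gave log2 differences in the null mutant of 2.48 for COR15A, 2.63 for LTI30 (adjusted p = 0.0647) and 0.29 for COR47 (adjusted p = 0.781), and in the substitution group of 1.04 (adjusted p = 0.431), 1.56 (adjusted p = 0.239) and -0.56 (adjusted p = 0.474) for the same genes in that order.

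**Figure D3:**
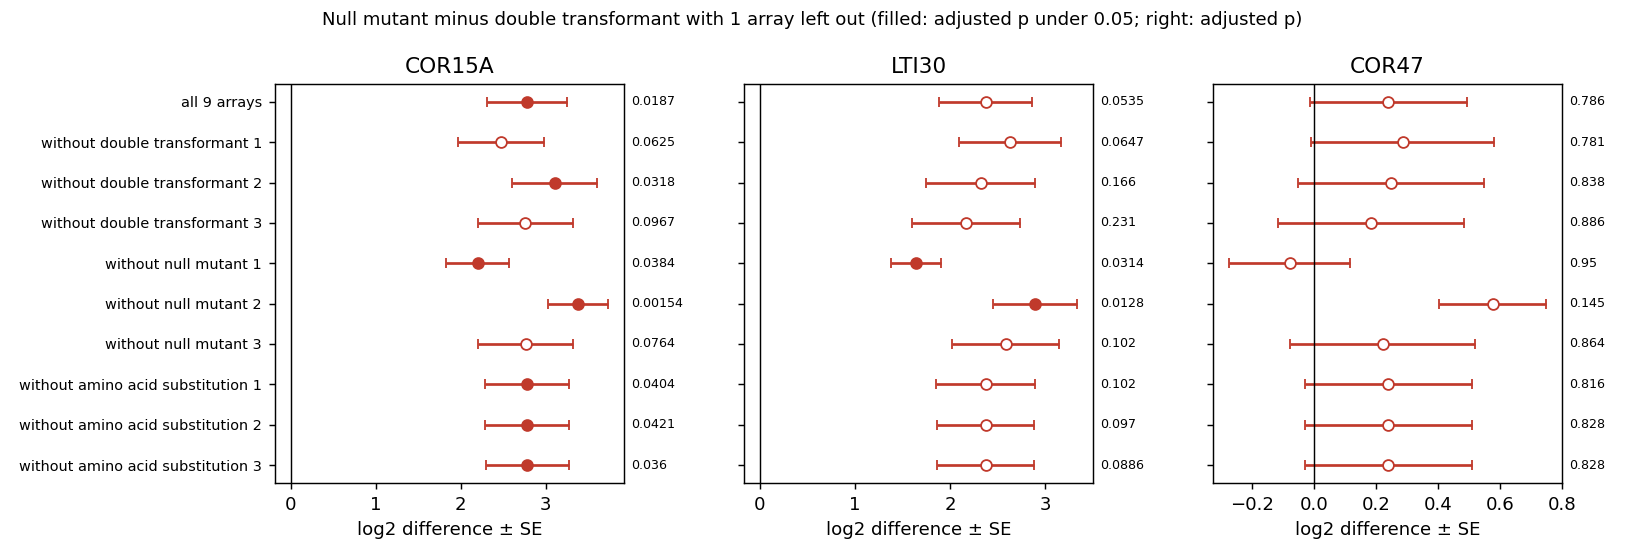
Log2 difference between null mutant and double transformant (± SE) with all 9 arrays and with each array left out in turn, for COR15A, LTI30 and COR47, each panel with its own scale. Filled points passed at a limma adjusted p under 0.05, and the adjusted p stands at the right. COR15A stays between 2.1996 and 3.38 and LTI30 between 1.64 and 2.90, while COR47 spans zero.

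COR15B is the tandem neighbour of COR15A and encodes a closely related chloroplast protein, and it also rose in the null mutant. Its signal was 451, 449 and 277 on double transformant arrays 1, 2 and 3. Null mutant arrays 1, 2 and 3 gave 2239, 929 and 1242. Substitution arrays 1, 2 and 3 gave 959, 918 and 907. Every mutant array was at least 2.01 times the highest double transformant array. COR15B rose in the null mutant by 1.83 ± 0.28 on the log2 scale (95% interval 1.22 to 2.44; limma adjusted p = 0.0109). This call was lost without double transformant 3 (1.60, adjusted p = 0.0545) and held in the other 8 fits without a single array. In the substitution group the difference was 1.27 ± 0.28 (95% interval 0.66 to 1.87; limma adjusted p = 0.0696), and it passed without null mutant 1 (adjusted p = 0.0157) and without null mutant 2 (adjusted p = 0.0379). It also passed in 4 of 16 other settings of the processing, with a lowest limma adjusted p of 0.0190. The replicate number as a block was among these (adjusted p = 0.0337). The probe sets of COR15A and COR15B carry the plain suffix and not the one that marks probes shared between sequences, but cross-hybridisation between these related genes was not tested.

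Beyond COR15B, no measured gene near the members was called against the double transformant, and many of the neighbours were not measured. Among the 5 annotated genes on either side of COR15A, 5 of 10 were measured, and COR15B was the single one called in the null mutant. None of them was called in the substitution group, where their log2 differences ran from -0.51 to 1.27. Of the neighbours of COR47, 3 of 10 were measured, with log2 differences of 0.22 to 0.29 (null mutant) and -3e-04 to 0.30 (substitution), and none was called. Of those of LTI30, 4 of 10 were measured, with differences of -0.11 to 0.42 (null mutant) and -0.23 to 0.13 (substitution), and none was called. ERD10 and XERO1, dehydrin genes that lie directly beside COR47 and LTI30, were not analysed here.

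**Figure D4:**
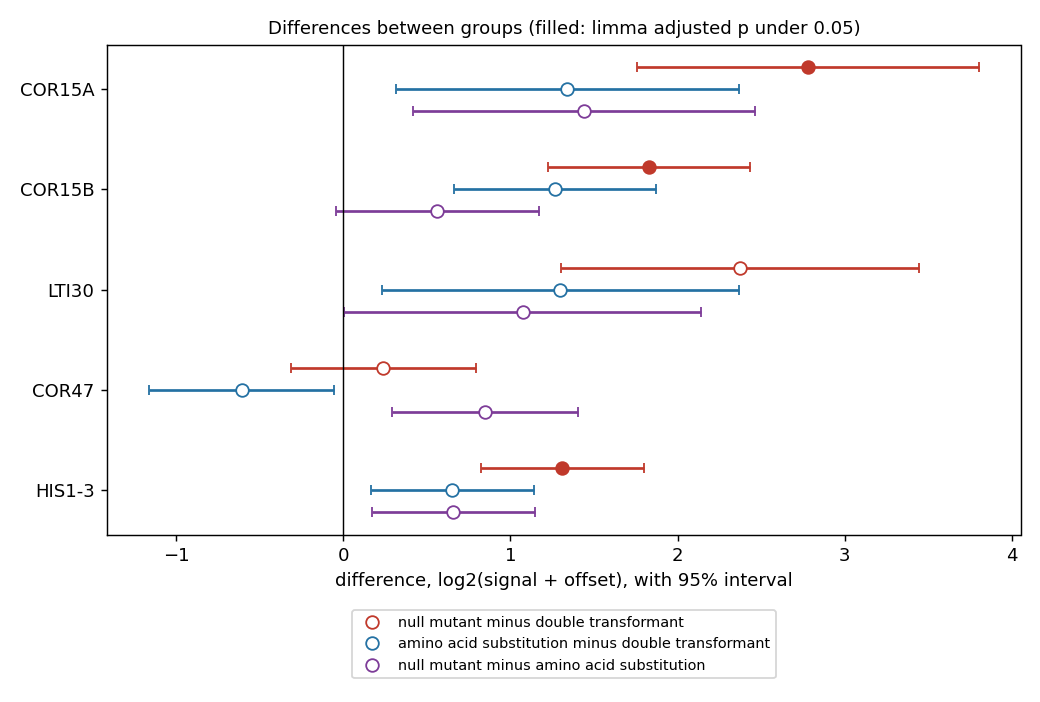
Log2 differences with 95% intervals from the fit of all 9 arrays for COR15A, COR15B, LTI30, COR47 and HIS1-3 in the 3 comparisons. Filled points passed at an adjusted p under 0.05, which were COR15A, COR15B and HIS1-3 in the null mutant against the double transformant, and COR47 is the gene whose difference lies below zero in the substitution group.

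Of 59 cold and drought response genes listed, 7 were measured: the members, COR15B, HIS1-3, HVA22C and ALDH7B4. In the null mutant 3 of the 7 rose (COR15A, COR15B and HIS1-3), none fell and 4 did not pass, where 0.659% of all probe sets were called higher and 0.101% lower. Their median log2 difference was 1.31, against 0.019 over all probe sets. The 7 include the members, and both members and list were chosen with earlier results known. Counts and medians of this list thus follow in part from that choice. Apart from the members, COR15B and HIS1-3 were called in the null mutant, and HVA22C and ALDH7B4 were not. In the substitution group 0 of 7 passed in limma, against 0.747% of all probe sets, and the median was 0.65 against -0.0031. At an unadjusted p under 0.05 the count was 5 of 7 (COR15A, COR15B, LTI30 and HIS1-3 higher, COR47 lower), against 11.8% of all probe sets. The count of 3 in the null mutant dropped to 1 when either double transformant 1 or null mutant 3 was left out, and to 0 when double transformant 3 was. HIS1-3, a linker histone variant known for its induction by drought, had a signal of 652, 652 and 615 on double transformant arrays 1, 2 and 3. It reached 2002, 1098 and 1835 on null mutant arrays 1, 2 and 3, and 865, 1322 and 894 on substitution arrays 1, 2 and 3, so all mutant arrays exceeded all double transformant arrays. It rose in the null mutant, with a log2 difference of 1.31 ± 0.22 (95% interval 0.82 to 1.80; limma adjusted p = 0.0193). Of the 9 fits that each left out an array, 5 lost that call, those without double transformant 1, 2 or 3 (adjusted p = 0.055, 0.0735 and 0.0999) and without null mutant 1 or 3 (adjusted p = 0.0868 and 0.0874), with differences between 1.15 and 1.58 over the 9 fits. In the substitution group it differed by 0.65 ± 0.22 (limma adjusted p = 0.258). HVA22C, of a family of stress-induced membrane proteins, differed by -0.014 (null mutant) and 0.25 (substitution), and ALDH7B4, a stress-related aldehyde dehydrogenase gene, by -0.069 and -0.15, none of which passed.

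Of the genes that act upstream, few could be assigned to a probe set with the annotation used. Among 30 regulators of the CBF pathway listed, STZ (also called ZAT10), a zinc finger repressor of stress responses, and SIZ1, an enzyme that attaches SUMO to proteins and stabilises a CBF activator, were measured. STZ differed by -0.88 ± 0.65 between null mutant and double transformant (limma adjusted p = 0.676) and by 1.28 ± 0.65 in the substitution group (limma adjusted p = 0.481), where a single array reached 580 and the lowest was at 60.8. SIZ1 differed by -0.21 ± 0.13 and -0.37 ± 0.13 (limma adjusted p = 0.607 and 0.282). Of 40 genes of abscisic acid synthesis and signalling, 0 could be read from a probe set naming a single gene, and they were not analysed here.

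In the LEA and dehydrin family, 36 of 52 listed genes were measured, and 8 of these had a mean level above the median of all probe sets. The 28 others, genes that are in part known from seeds, did not exceed a signal of 80.5 on any array. In the null mutant 4 of 36 rose, none fell and 32 did not pass, where 0.659% of all probe sets were called higher and 0.101% lower. The median log2 difference was 0.43, against 0.019 over all probe sets. The genes that rose were COR15A, COR15B, M17 and DI21. This family includes the members, which were chosen with earlier results known, so its counts follow in part from that choice. In the substitution group 2 of 36 rose (M17 and DI21) and 34 did not pass, where 0.62% of all probe sets were called higher, and the median was 0.040 against -0.0031. M17, a LEA family gene, averaged 5.76 ± 4.39 on double transformant arrays, 53.1 ± 14.6 on null mutant arrays and 73.6 ± 6.51 on substitution arrays (SD, n = 3), and rose by 2.61 ± 0.34 (limma adjusted p = 0.00425) and 3.08 ± 0.34 (limma adjusted p = 0.00129). Its substitution arrays lay above its null mutant arrays, a log2 difference of -0.47 ± 0.34 for null mutant minus substitution that did not pass (limma adjusted p = 0.841). Both calls of M17 held in all 9 fits without a single array. Over 16 other settings of the processing its difference ran from 1.16 to 3.16 in the null mutant, with 14 calls. In the substitution group it ran from 1.48 to 3.44, with 15 calls. DI21, named for its induction by drought, rose by 0.82 ± 0.16 in both groups (limma adjusted p = 0.0469 and 0.0493). Each of its calls held in 1 of the 9 fits without a single array, the lowest adjusted p being 0.037 without null mutant 2 in the null mutant comparison and 0.0496 without null mutant 2 in the substitution comparison.

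Among the brighter LEA genes, the dehydrin AT1G54410 differed by 0.31 ± 0.22 (null mutant) and 0.23 ± 0.22 (substitution) (limma adjusted p = 0.662 and 0.768). AT2G23120 differed by 0.63 ± 0.26 and 0.19 ± 0.26 (limma adjusted p = 0.397 and 0.858), with 1119 on null mutant 1 against 521 and 524 on null mutant 2 and 3. AT2G44060 differed by 0.25 and 0.052, with limma adjusted p of 0.678 and 0.958. PAP85, a seed storage protein gene and the single measured gene of 14 seed markers listed, spanned 4.65 to 34.7 on double transformant arrays, 31.5 to 146 on null mutant arrays and 71.4 to 122 on substitution arrays, and differed by 1.98 ± 0.55 and 2.37 ± 0.55 (limma adjusted p = 0.168 and 0.0901). Its part in the LEA gene values was not tested.

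**Figure D5:**
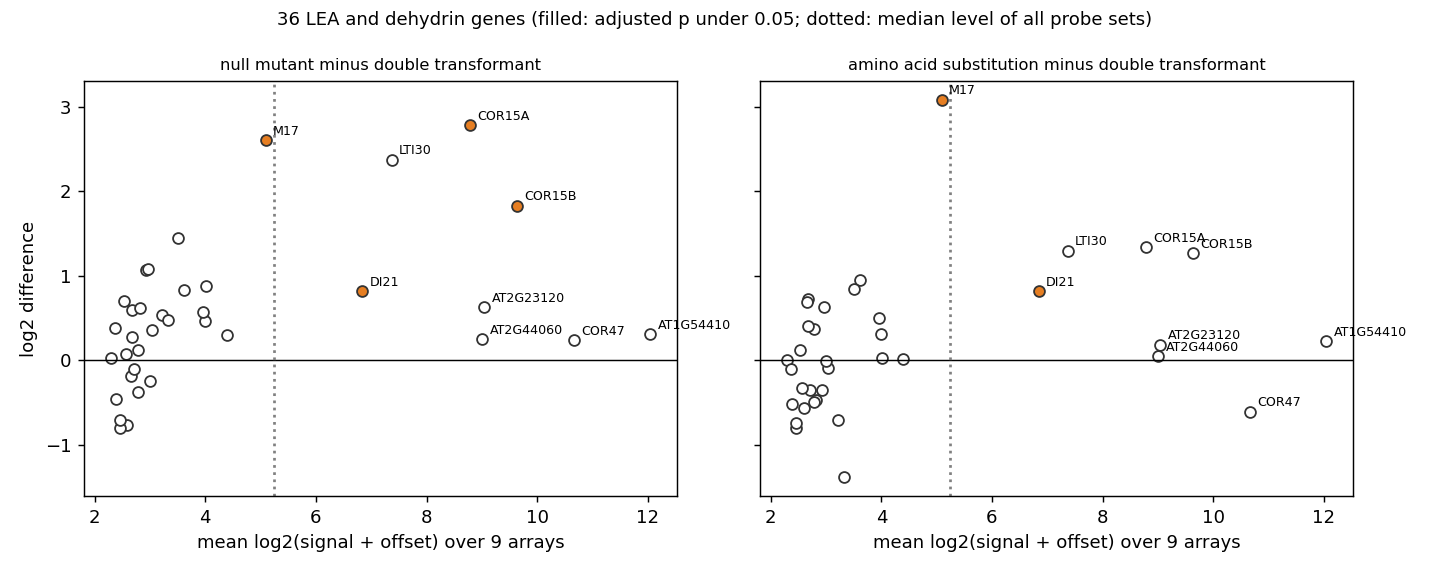
Log2 difference against mean level over 9 arrays for the 36 measured LEA and dehydrin genes, with a panel for either mutant group. Filled points passed at a limma adjusted p under 0.05 (4 and 2 genes) and the dotted line marks the median level of all probe sets. Most genes lie to the left of that line, near background.

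Over the 9 arrays the log2 values of COR15A and LTI30 followed each other (Pearson r = 0.91), and those of COR47 followed neither closely (0.46 with COR15A and 0.48 with LTI30). These are descriptions, since the arrays fall into 3 groups. Among 5913 other genes above the median level, COR15B was the fourth most like LTI30 (r = 0.96). The genes most like LTI30 were AT4G17100 (0.97), AT4G23870 (0.96), AT5G53020 (0.96), COR15B and AT3G07310 (0.96). Those most like COR15A were AT4G30650 (0.98), AT5G59130 (0.97), AT1G64370 (0.97), AT2G16990 (0.97) and AT1G52000 (0.96). For COR47 the most similar genes were AT1G03760 (0.95), AT2G45820 (0.94), MTP11 (0.94), AT3G11420 (0.93) and AT3G27570 (0.91). These genes were picked for following the members on these same arrays, so their differences between groups are fixed in part by that choice and were not read as results.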

How the data were processed

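RNA from 9 ATH1 arrays was analysed from the deposited table of intensity values. The authors deposited linear signals, for which the submitters' processing notes list the programs MAS5 and GCOS; their versions are not given in the sources used here. The mean after trimming 2% at each end was between 100.009 and 100.011 on all arrays, so they had been scaled before deposit. Detection calls were not used. Groups and replicate numbers came from the titles. After leaving out 64 control probe sets, 22746 were tested as log2(signal + 4.03), the offset being the 20th percentile of all values; such differences understate the change of dim probe sets. All 9 arrays entered a single fit in limma 3.58.1 (R 4.3.3) with variances moderated by eBayes along an intensity trend, and a Benjamini-Hochberg adjusted p under 0.05 over all probe sets counted as a call. The SE of a probe set is thus the same in every comparison, whatever the spread of the groups compared. The fit was tested on simulated data.

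Probe sets were named from the platform annotation, which can be old, with symbols brought up to date through RefSeq (TAIR10.1), which also gave gene order: 13513 probe sets had 1 gene, 503 several and 8794 none here. Of the former, 13436 matched a locus, and each of 13286 loci was read from its probe set with the highest mean. The members and lists were chosen with earlier results of these data known. Named genes were, by rule, the members, their nearest neighbours, called members of each list (or those with the smallest p), and the 5 genes above the median level most correlated with each member; AT1G54410, AT2G23120 and AT2G44060, the uncalled LEA genes above the median level, and all listed tissue markers and cold genes that were measured, were added after their values were seen. Same-numbered arrays of different groups had deviations correlating at -0.0409 to 0.154, so no pairing was assumed. Other offsets, filters, normalizations, variance priors, weights, blocks and subsets of arrays were tried.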

Additional observations from a re-analysis of the deposited data

How the results depend on the processing

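The rise of COR15A in the null mutant kept its direction in all alternatives. Its call was lost without an intensity trend, with a robust prior, without moderation and with only the 6 arrays compared (log2 difference 2.78 in each; limma adjusted p = 0.0845, 0.113, 0.257 and 0.088), without the 3 arrays titled rpt (1.90, adjusted p = 0.0907), without double transformant 3 and null mutant 3 together (2.74, adjusted p = 0.244) and at a threshold of 0.01. LTI30 in the null mutant passed with a smaller offset (2.41), without dim probe sets, with a replicate block and with a block for rpt titles (2.37 in each), with array weights (2.51) and without the rpt arrays (1.90), at adjusted p of 0.044, 0.0387, 0.0292, 0.0192, 0.0395 and 0.0114. LTI30 in the substitution group passed without the rpt arrays (1.59) and with only the 6 arrays compared (1.299). COR47 in the null mutant was at -0.031 without the rpt arrays. Leaving out single arrays gave 2.1996 to 3.38 for COR15A, 1.64 to 2.90 for LTI30 and -0.078 to 0.58 for COR47 in the null mutant, 1.09 to 1.56 for LTI30 in the substitution group, and 0.53 to 1.18 for COR47 between the mutants. The uncalled DI21 difference between the mutants changed sign with arrays centred on their median (-0.0284), without the rpt arrays (-0.0991) and without double transformant 3 and null mutant 3 (-0.0251), and ran from -0.0626 to 0.0955 without single arrays. The replicate block changed no other call of the members, and in the LEA family it ended that of DI21 in the null mutant (adjusted p = 0.063). Calls over all probe sets moved from 173 to between 45 and 339 in the null mutant, from 170 to between 38 and 373 in the substitution group (321 with the replicate block) and from 9 to between 0 and 48 between the mutants, where 1447 had an unadjusted limma p under 0.05. Called LEA genes ran from 0 to 5 (4 in the fit of all arrays) and from 0 to 3 (2), and called cold and drought genes from 0 to 4 (3) and from 0 to 2 (0), in the null mutant and the substitution group. Where fits had fewer arrays, less moderation or a stricter threshold, lost calls follow in part from that construction; otherwise the cause was not tested. The number of arrays limits the precision.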
